A study of Homo sapiens with 39 samples.

Results

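The genes described here are 10 genes of catecholamine synthesis and of the dense core vesicle, the organelle in which neuroendocrine cells store amines and peptides. They were taken by name, whatever their values, from the 23710 gene symbols in each of 5 tables of differential expression. They are TH, DDC and DBH, which make noradrenaline from tyrosine, SLC18A2, which loads amines into vesicles, and CHGA, CHGB, SCG2, SCG3, SCG5 and VGF, which encode granins and related secretory proteins. The study compared RNA sequencing of cells that differ in TRIM37, a ubiquitin ligase, in 39 libraries of 9 groups. hTERT RPE1 is a telomerase-immortalised line of human retinal pigmented epithelium, and it was sequenced as wild type (9 libraries) and as a TRIM37 knockout (9 libraries, with no clone named). The RPE1 wild-type labels number replicates within replicates, the knockout labels number them singly, and what the inner number stands for is not said. CHP-134 is a human neuroblastoma line, and it was sequenced as wild type (3 libraries) and as MT clone 1 and MT clone 2 (3 libraries each), for which the genotype is given as a partial TRIM37 knockout. RPE1 clones 4 and 5 carry a TetOn-TRIM37 construct that doxycycline switches on, and each was sequenced untreated and after 1 µM doxycycline for 24 h (3 libraries per group). The doxycycline groups had no wild-type cells given the drug beside them, so the drug and the induced TRIM37 cannot be told apart. Each CHP-134 mutant clone is a single clone set against wild-type cells, so clone and genotype cannot be told apart there. For the RPE1 knockout no clone is named, so the same limit may apply. Each TetOn clone is a single clone too, but it was compared with its own untreated cells.

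Tyrosine hydroxylase (TH) carries out the first and rate-limiting step of catecholamine synthesis, DOPA decarboxylase (DDC) the next, and dopamine beta-hydroxylase (DBH) turns dopamine into noradrenaline inside the vesicle. Chromogranins and secretogranins fill the core of that vesicle, help to form it and are cut into peptides that are released with the amine. Sympathetic neurons, adrenal chromaffin cells and the neuroblastomas that arise from their precursors make these proteins, whereas pigmented epithelium is not known as a neuroendocrine tissue.

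Several of these genes are textbook examples of control through the cyclic AMP response element (CRE), whose full form reads TGACGTCA. The promoters are shown because 3 of the genes with the full element, CHGA, VGF and SLC18A2, are among those whose levels are compared below. Sequences came from RefSeq on GRCh38.p14, in windows of 250 bases before and 50 after the annotated start. Of the 10 genes, 7 matched an entry, and TH, CHGB and SCG2 did not, so their promoters were not examined. The full CRE, which reads the same on both strands, lay in 3 of these 7 genes, against 649 of 35116 windows of all genes (1.85%). The short form, TGACG or its reverse complement CGTCA, which is contained in the full form, lay in 8622 of the 35116 windows (24.6%). It lay at positions -181 to -177 in DBH, -17 to -13 in SCG5, -4 to 1 in SCG3 and, beside the full element, 34 to 38 in SLC18A2, with position 1 the first base of the transcript. Neither of the 2 windows of DDC held either form. A match describes these letters only, and binding was not measured. The stretches around the full elements of CHGA (chr14:92923050-92923149, plus strand), VGF (chr7:101165570-101165669, minus strand) and SLC18A2 (chr10:117241014-117241113, plus strand), and around the short elements of DBH (chr9:133636163-133636222, plus strand) and SCG5 (chr15:32641650-32641709, plus strand), read as follows, with the element in capitals.
CHGA: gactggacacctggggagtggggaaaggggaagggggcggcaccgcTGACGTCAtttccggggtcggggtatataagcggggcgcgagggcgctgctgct
VGF: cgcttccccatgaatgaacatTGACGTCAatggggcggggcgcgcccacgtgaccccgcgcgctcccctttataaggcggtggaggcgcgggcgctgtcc
SLC18A2: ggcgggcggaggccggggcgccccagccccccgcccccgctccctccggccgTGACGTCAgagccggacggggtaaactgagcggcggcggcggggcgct
DBH: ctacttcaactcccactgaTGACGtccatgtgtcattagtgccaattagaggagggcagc
SCG5: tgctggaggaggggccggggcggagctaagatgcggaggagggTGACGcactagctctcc
In CHGA the element lay at positions -54 to -47, in VGF at -79 to -72 and in SLC18A2 at -48 to -41, all within the last 100 bases before the start.

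Each of the authors' deposited tables compares 2 groups and gives, per gene, a mean count over both groups, a log2 fold change, the standard error (SE) of that change, a q value (an adjusted p-value) and a Status. Status Low marks a mean count of at most 10 and Status Outlier marks genes that were set aside at any count, and neither kind was tested. The remaining genes, 12153 to 13002 per table, are called usable here, and a gene is called changed where its q was under 0.05. Neither a value per library nor the depth of a library was analysed here, so the spread over replicates enters only through the SE, and the level of each group was worked out from the mean count and the fold change. No header names which group is the numerator, so the direction of each table was set by the sign of TRIM37, and that sign is therefore no check of the labels. The log2 fold change of TRIM37 in the authors' deposited tables was -1.95 in the RPE1 knockout, -1.66 and -1.75 in CHP-134 clones 1 and 2, and 3.19 and 2.64 after doxycycline in TetOn clones 4 and 5. Of 20 sympathoblast and neuronal markers, 19 and 20 lay above a mean count of 10 in the tables of CHP-134 clones 1 and 2, and 6 of 20 in each RPE1 table. Of 16 retinal pigment epithelium markers, 6 lay above a mean count of 10 in the RPE1 knockout table, 5 in each TetOn table and 4 in each CHP-134 table. The transcription factor genes MITF and OTX2 and the keratin genes KRT8 and KRT18 were above it in all 3 RPE1 tables. In the authors' deposited knockout table they were at 2140, 874, 20500 and 25800. MITF and OTX2 were above it in both CHP-134 tables too. RPE65, TYR, MLANA and TTR, which mark differentiated pigmented epithelium, were at a mean count of at most 0.173 in every RPE1 table. The glial marker SOX10 was at 0 in all 5 tables.

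In CHP-134 cells CHGA, SCG3, CHGB and SCG2 were abundant and the genes of amine synthesis were not. Per kilobase of the longest coding transcript, the wild-type level worked out from the authors' deposited clone 1 table was 4990 for CHGA, 1480 for SCG3, 647 for CHGB and 410 for SCG2. VGF and SLC18A2, both Status Outlier there, stood at 74.2 and 31.9 per kilobase. DDC followed at 22.1 and SCG5, which encodes the chaperone 7B2 of prohormone convertase 2, at 15.9. TH, the rate-limiting enzyme, stood at 2.96 and DBH at 1.59, both Status Low. The spread between libraries behind this order is not in the tables, so neighbours in it were not tested against each other.

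The 2 CHP-134 tables use the same wild-type libraries, which gave a check of these levels. The wild-type level from the clone 1 table was 0.940 times that from the clone 2 table in the median of 10201 genes, with a standard deviation over genes of 0.0095 on the log2 scale. After this scaling the wild-type level of CHGA was 10294 from one table and 10322 from the other, that of SCG2 1055 and 1046, and that of DDC 45.0 and 45.4. VGF was at 191 and 163, the widest gap among the members above a mean count of 10.

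RPE1 cells held a single abundant member. SCG5 was at a level of 2449 in wild-type RPE1, or 1978 per kilobase, worked out from the authors' deposited knockout table, and at 474 and 384 in untreated TetOn clones 4 and 5. SCG2 was at 61.7 in wild-type RPE1, or 23.9 per kilobase, and at 57.3 and 42.1 in untreated TetOn clones 4 and 5. VGF was at 7.95, 7.06 and 7.94 in the same groups, with 3.09 per kilobase in wild-type RPE1. DDC, DBH and SCG3 were listed at a mean count of 0 in all 3 RPE1 tables of the authors, and CHGA at 1.48 in the knockout table and 0 in both TetOn tables. CHGB was at a mean count of 9.92, 2.68 and 5.30, TH at 4.35, 0.829 and 0.985, and SLC18A2 at 0.328, 0.322 and 0.163 in the authors' deposited knockout, clone 4 and clone 5 tables, all Status Low. Per kilobase the order of the members thus differed between the lines, with SCG5 the highest in RPE1 and CHGA the highest in CHP-134. The tables were normalised separately, so no fold was taken between tables.

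**Figure D1:**
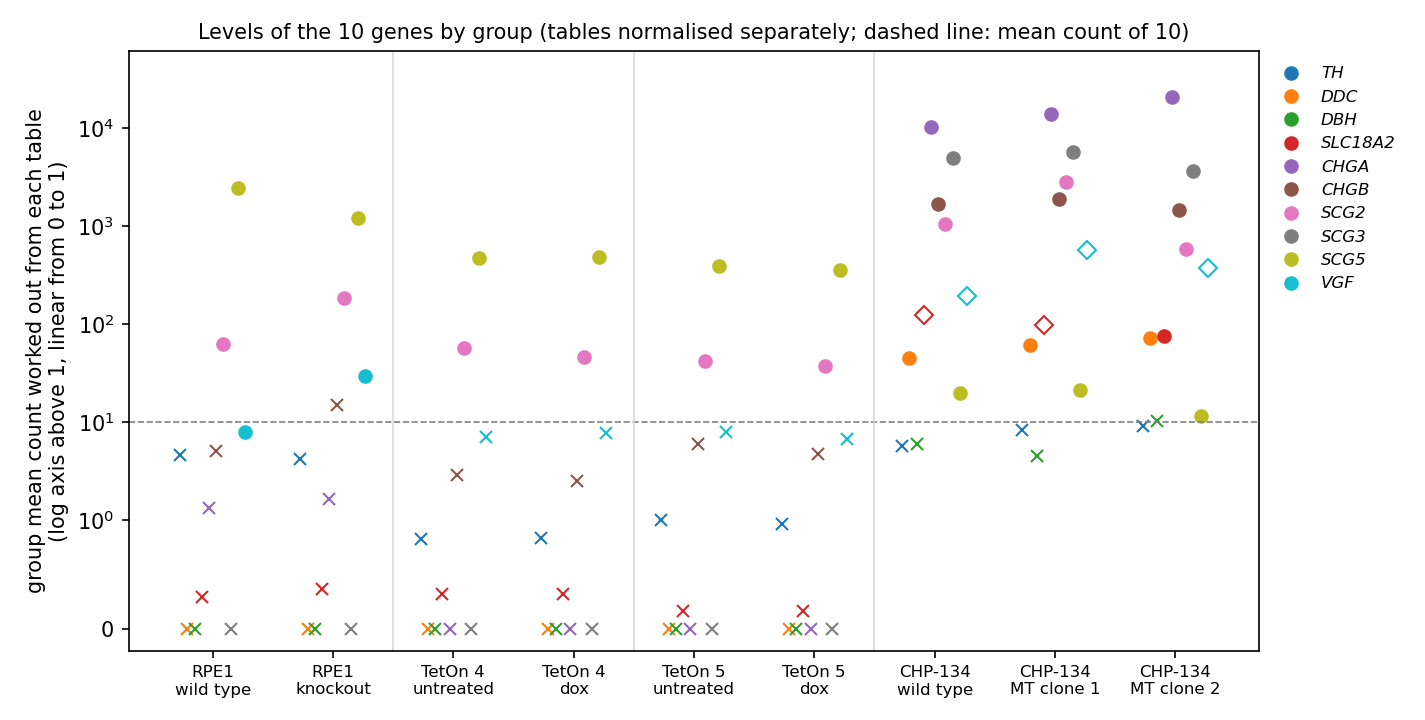
Levels of the 10 genes in the 9 groups, as mean counts worked out from each of the authors' tables (vertical axis, logarithmic above 1 and linear from 0 to 1), with 1 colour per gene. Filled circles are usable genes, open diamonds Status Outlier and crosses Status Low, and the dashed line marks a mean count of 10. CHGA stands at the top of the 3 CHP-134 groups and SCG5 at the top of the 6 RPE1 groups, where DDC, DBH and SCG3 lie at 0.

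The RPE1 knockout table addressed what loss of TRIM37 does in an epithelial line. SCG2 and VGF, which encode precursors of secreted peptides, rose in the knockout, and SCG5 fell. All 3 usable members were thus called, 2 up and 1 down, in a table where 53.6% of usable genes were called, 26.6% upward and 26.9% downward. The other 7 members were Status Low.

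SCG2, whose product secretogranin II is the precursor of secretoneurin, went from a level of 61.7 in wild-type cells to 184 in the knockout, worked out from the authors' deposited table. That was 2.99-fold higher (95% interval 2.45 to 3.65), a log2 fold change of 1.58 (SE 0.146, q = 5.16e-26), and 171 of 13002 usable genes had a larger rise. VGF, a nerve growth factor inducible peptide precursor, went from 7.95 to 29.3, or 3.68-fold higher (95% interval 2.38 to 5.69), with a log2 fold change of 1.88 (SE 0.321, q = 2.27e-08) in the authors' deposited table. SCG2 and VGF thus moved the same way at very different counts, and the interval of VGF was the wider.

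SCG5 went the other way, from 2449 to 1191. Wild-type cells were 2.06-fold above the knockout, and the log2 fold change in the authors' deposited table was -1.04 (SE 0.0470, q printed as 0). CHGB, Status Low at a mean count of 9.92, was at 5.00 in wild-type cells and 14.8 in the knockout, with a log2 fold change of 1.57 (SE 0.371) and no test in the authors' deposited table. The calls of SCG2 and SCG5 held under every alternative tried. With the statistics of all usable genes rescaled to their own central spread, SCG2 and SCG5 passed (adjusted p = 0.0325 and 5.32e-08). VGF was lost under that rescaling (adjusted p = 0.502) and was left untested by a minimum mean count of 50. Values near a mean count of 10 carry a further limit, since the SE in this table stopped at 0.422 and fell to a median of 0.236 at mean counts of 0 to 1, as shrunken fold changes do.

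**Figure D2:**
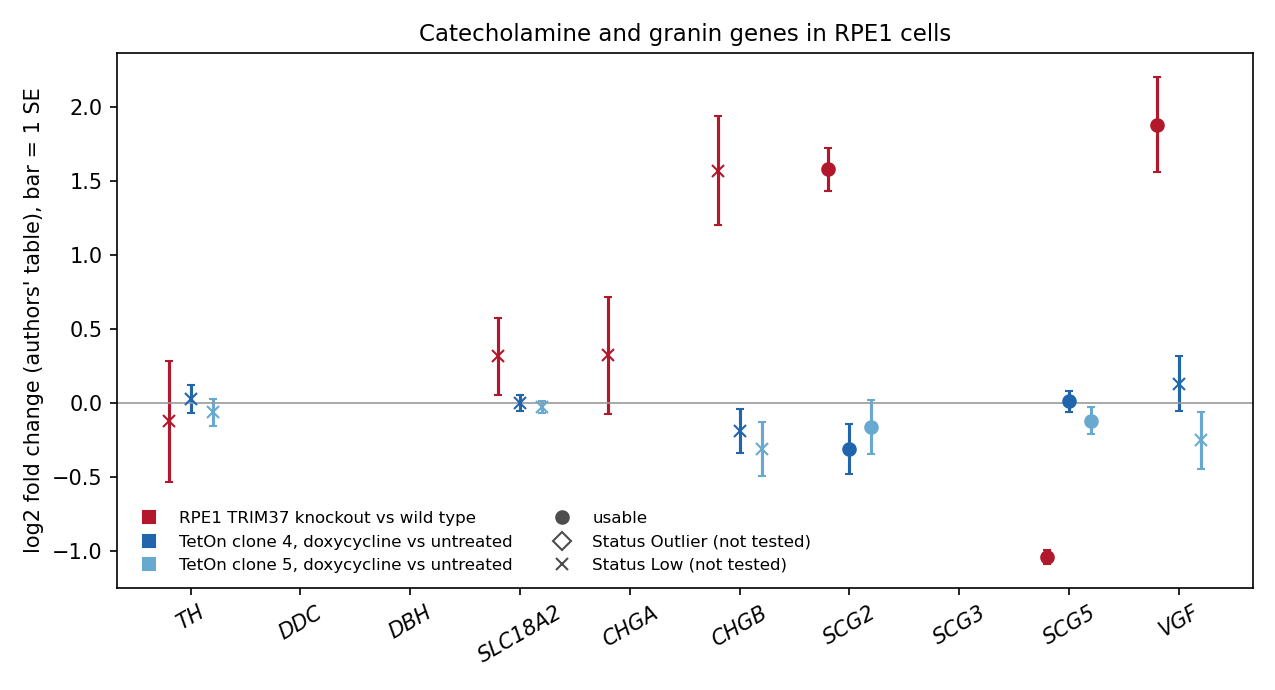
Log2 fold changes of the 10 genes in RPE1 cells from the authors' deposited tables, with bars of 1 SE, for the knockout against wild type and for doxycycline against untreated cells in TetOn clones 4 and 5. Circles are usable genes and crosses are Status Low, and genes listed at 0 have no symbol. SCG2 and VGF lie at 1.58 and 1.88 and SCG5 at -1.04 in the knockout, while the doxycycline values lie from -0.31 (SCG2, clone 4) to 0.13 (VGF, clone 4).

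The first CHP-134 mutant clone was compared with wild-type CHP-134 to ask what reduced TRIM37 does in a neuroblastoma line. CHGA, CHGB and SCG2 rose in clone 1 and no member fell. These were 3 of 6 usable members, where 18.7% of usable genes were called in the table, 9.6% upward and 9.07% downward. TH and DBH were Status Low, and SLC18A2 and VGF Status Outlier.

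Among the usable members SCG2 had the widest change, from a level of 1055 in wild-type cells to 2765 in clone 1. That was 2.62-fold higher (95% interval 2.41 to 2.85), a log2 fold change of 1.39 (SE 0.0613, q printed as 0) in the authors' deposited table, and only 23 of 12791 usable genes had a larger rise. CHGA, which encodes chromogranin A, a clinical marker of neuroendocrine tumours, went from 10294 to 13906. The log2 fold change in the authors' deposited table was 0.43 (SE 0.0869, q = 1.94e-05), or 1.35-fold (95% interval 1.20 to 1.52). CHGB, which encodes chromogranin B, went from 1649 to 1891, with a log2 fold change of 0.20 (SE 0.0562, q = 0.00494) in the authors' deposited table.

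SCG3, whose product binds chromogranin A to the vesicle membrane, was at 4906 and 5694 and did not pass (0.21, SE 0.0919, q = 0.0853) in the authors' deposited table. DDC was at 45.0 and 60.2 and did not pass either (0.42, SE 0.199, q = 0.129 in the authors' deposited table). SCG5 was at 19.7 and 21.3, with a log2 fold change of 0.11 (SE 0.265, q = 0.825) in the authors' deposited table. The intervals of SCG3, from 0.035 to 0.40, and of DDC, from 0.029 to 0.81 on the log2 scale, lay above 0 before the adjustment over all genes.

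The Outlier genes are given as values. VGF was at 191 in wild-type cells and 571 in clone 1, with a log2 fold change of 1.58 (SE 0.227) in the authors' deposited table. With Outlier genes kept and q recomputed, VGF would have passed (adjusted p = 2.86e-10). SLC18A2, the vesicular monoamine transporter VMAT2, was at 124 and 96.4, with a log2 fold change of -0.36 (SE 0.256) in the authors' deposited table, and would not have passed (adjusted p = 0.352). TH was at 5.65 and 8.25 and DBH at 6.0 and 4.52, below the count at which the authors tested. The rises of CHGA and CHGB were under 1.5-fold and were lost under the rescaled null (adjusted p = 0.214 and 0.599), and the rise of SCG2 was not.

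The second mutant clone was compared with the same wild-type libraries. CHGA and DDC rose in clone 2, and SLC18A2, CHGB, SCG2, SCG3 and SCG5 fell. All 7 usable members were called, 2 up and 5 down, in a table where 46.2% of usable genes were called, 22% upward and 24.2% downward.

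CHGA went from 10980 in wild-type cells to 20820 in clone 2. The log2 fold change was 0.92 (SE 0.0814, q = 5.64e-28) in the authors' deposited table, which is 1.90-fold (95% interval 1.70 to 2.12). SCG2 went from 1113 to 583, so that wild-type cells were 1.91-fold above the clone. Its log2 fold change was -0.93 (SE 0.0749, q = 1.15e-33) in the authors' deposited table, and 281 of 12771 usable genes had a larger fall. CHGA and SCG2, which both rose in clone 1, thus moved in opposite directions in clone 2.

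SCG3 went from 5198 to 3642, a log2 fold change of -0.51 (SE 0.0945, q = 5.17e-07) in the authors' deposited table. CHGB went from 1756 to 1464 (-0.26, SE 0.0573, q = 2.88e-05 in the authors' deposited table). SCG5 went from 19.4 to 11.4 with a log2 fold change of -0.78 (SE 0.319, q = 0.0346) in the authors' deposited table. Among these the smallest relative fall was that of CHGB, to 0.833 times the wild-type level, and the largest that of SCG5, to 0.584 times.

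Of the amine genes, SLC18A2 went from 135 to 75.3, a log2 fold change of -0.84 (SE 0.211, q = 0.000338) in the authors' deposited table. DDC went from 48.3 to 71.7 (0.57, SE 0.249, q = 0.0495 in the authors' deposited table), just inside the threshold. The gene that loads amines into vesicles and the gene of the second synthetic step thus moved in opposite directions. VGF, Status Outlier, was at 174 and 374 (1.11, SE 0.202, in the authors' deposited table) and would have passed if kept (adjusted p = 3.79e-07). TH was at 5.25 and 8.99 and DBH at 8.28 and 10.1, both Status Low.

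Under the rescaled null CHGA and SCG2 were still called in clone 2 (adjusted p = 0.0171 and 0.00526). DDC, SLC18A2, CHGB, SCG3 and SCG5 were not (adjusted p = 0.744 to 0.994). DDC and SCG5 were also lost at a threshold of 0.01. In the GENCODE v29 annotation the exons of DDC, DBH and SLC18A2 overlap genes on the opposite strand, and the sources used here do not say whether strand was counted, so the counts of these 3 genes may include antisense reads. The exons of the other 7 members overlap no other gene.

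**Figure D3:**
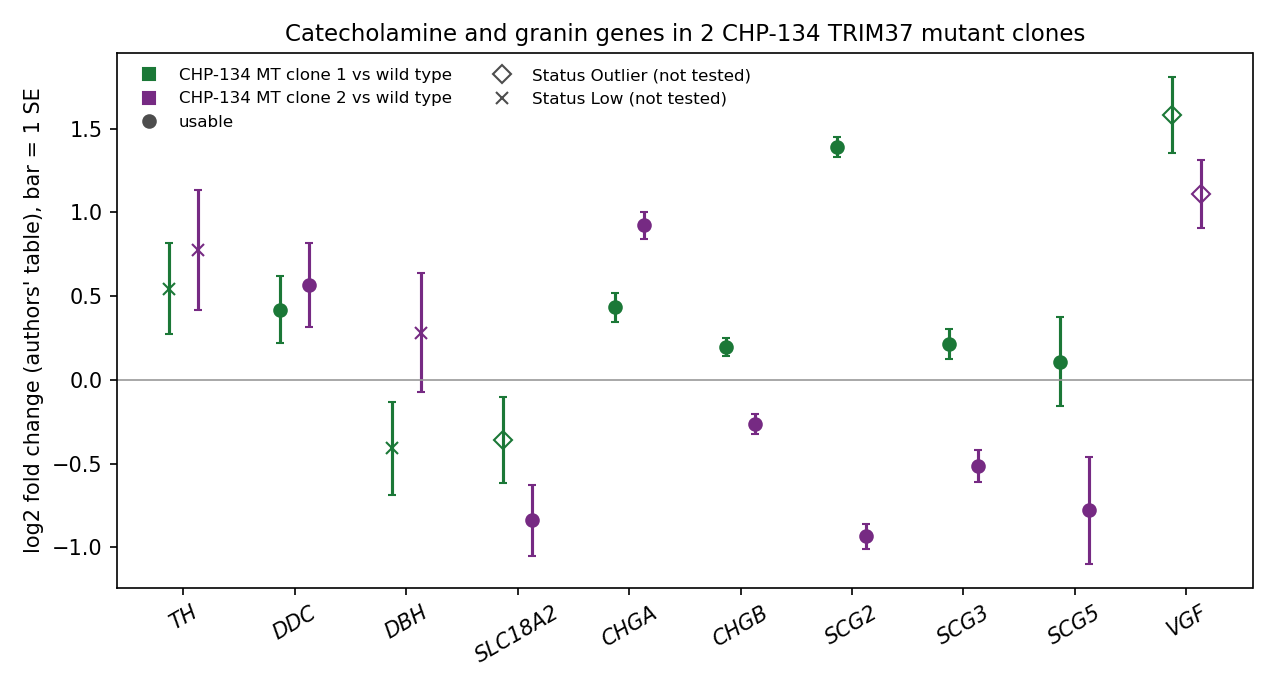
Log2 fold changes of the 10 genes in CHP-134 mutant clones 1 and 2 against wild type from the authors' deposited tables, with bars of 1 SE. Circles are usable genes, open diamonds Status Outlier and crosses Status Low. SCG2 lies at 1.39 in clone 1 and at -0.93 in clone 2, and CHGA lies above 0 in both.

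The 2 clones were then set against each other by subtracting their log2 fold changes, with the SE of the difference taken as if the tables were independent. They share the wild-type libraries, which on its own makes this SE too large. The deposited SEs may measure technical spread only, so the test cannot be called conservative. Of the 6 members usable for both clones, 4 differed, 1 higher and 3 lower in clone 2, where 20.5% of 12579 genes differed, 9.29% higher and 11.2% lower. SCG2 differed by -2.32 (SE 0.0968, adjusted p = 2.62e-124), from 1.39 in clone 1 to -0.93 in clone 2 of the authors' deposited tables. SCG3 differed by -0.73 (SE 0.132, adjusted p = 6.93e-07) and CHGB by -0.46 (SE 0.0803, adjusted p = 2.23e-07). CHGA differed by 0.49 (SE 0.119, adjusted p = 0.000453), since its rise was larger in clone 2.

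SCG5 and DDC did not pass the test of the difference. For SCG5 it was -0.89 (95% interval -1.70 to -0.074, adjusted p = 0.120), and for DDC 0.15 (95% interval -0.48 to 0.77, adjusted p = 0.808), intervals that leave room for sizeable differences. With Outlier genes kept, VGF differed by -0.47 (SE 0.304, adjusted p = 0.303) and SLC18A2 by -0.48 (SE 0.332, adjusted p = 0.343). Under the rescaled null the differences of SCG2 (adjusted p = 1.66e-36) and CHGB (adjusted p = 0.0378) were still called. Those of CHGA (adjusted p = 0.276) and SCG3 (adjusted p = 0.0515) were not.

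Markers of the neuronal lineage moved alongside. Of 13 sympathoblast and neuronal markers usable in both tables, 7 were lower and 0 higher in clone 2 than in clone 1, with a median difference of -0.34, where 11.2% of all genes were lower and 9.29% higher. Against wild type, 7 of 13 usable markers rose and 0 fell in clone 1 (median 0.15), while 3 rose and 7 fell of 14 in clone 2 (median -0.13). The summed level of all 20 markers, including any of Status Outlier or Low, went from 110785 in wild-type cells to 131081 in clone 1. For clone 2 the sum went from 117546 to 118225. Such a sum is weighted toward the most abundant markers. None of the 20 was at 0. Of 18 Schwann cell and mesenchymal markers, 1 was up and 3 down of 7 usable in clone 1, and 2 up and 2 down of 8 in clone 2, with SOX10 at 0. The summed level of these 18 went from 16524 to 16347 in clone 1 and from 17565 to 17067 in clone 2. The part of cell state in the granin differences was not tested. In these bulk libraries a smaller share of cells that make a granin and less RNA per cell cannot be told apart.

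**Figure D4:**
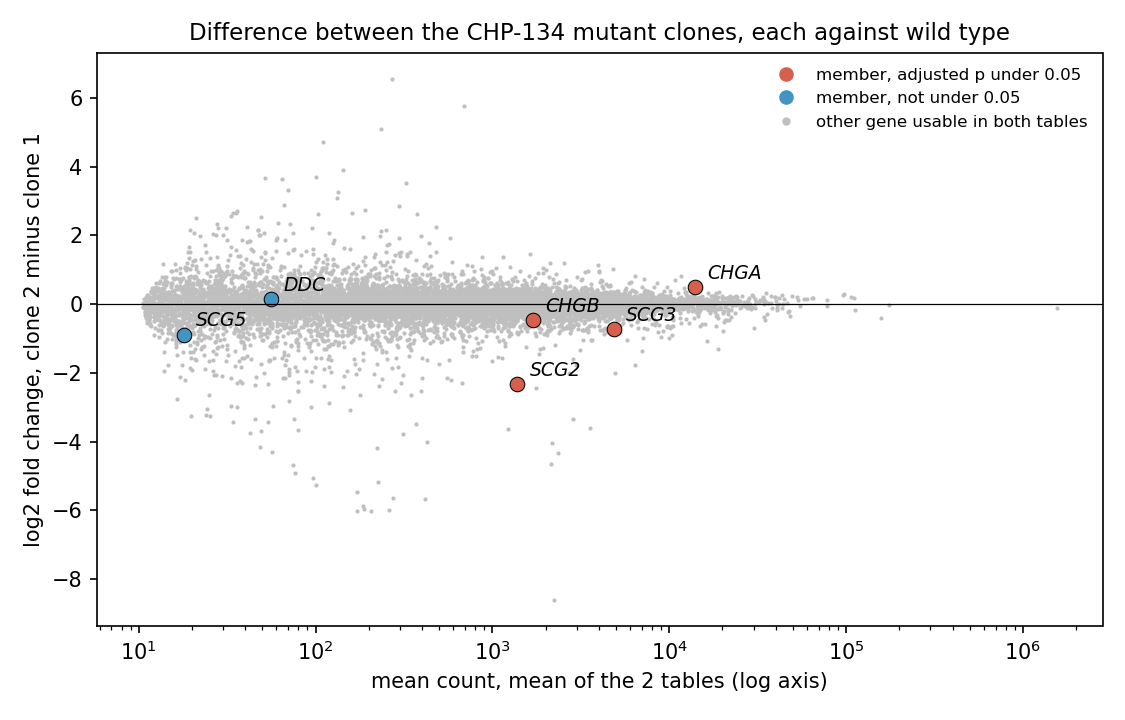
Difference of the log2 fold changes of the 2 CHP-134 mutant clones (clone 2 minus clone 1, vertical axis) against the mean count (horizontal axis, logarithmic) for the 12579 genes usable in both tables. Members are coloured by whether their adjusted p was under 0.05, and the other genes are grey. SCG2 lies at -2.32, far below the band of genes of like count, and CHGA lies above 0.

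The RPE1 knockout and the CHP-134 clones could be compared for SCG2 and SCG5, the members usable in all these tables. This test was chosen after the values were seen. SCG2 rose in the RPE1 knockout and in CHP-134 clone 1 of the authors' deposited tables (1.58 and 1.39), and the difference of -0.19 did not pass (95% interval -0.50 to 0.12, adjusted p = 0.377). Of all genes, 34.1% differed between these comparisons. SCG2 in clone 2 differed from the knockout by -2.51 (SE 0.164, adjusted p = 6.75e-51), in a pair of tables where 46.5% of genes differed. SCG5 fell in the knockout, and its change in clone 1 differed from that by 1.15 (SE 0.269, adjusted p = 0.000132). In clone 2 the difference of SCG5 from the knockout was 0.26 (95% interval -0.37 to 0.89, adjusted p = 0.529).

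Doxycycline induction in RPE1 cells addressed the effect of raised TRIM37. Neither of the 2 usable members, SCG2 and SCG5, was called in either TetOn clone, and 0 of 2 passed at an unadjusted p under 0.05, where 1.95% of usable genes were called in clone 4 and 2.97% in clone 5 by the authors' tool, DESeq2. SCG2 went from 57.3 to 46.1 in clone 4, a log2 fold change of -0.31 (95% interval -0.64 to 0.016, q = 0.553), and from 42.1 to 37.5 in clone 5 (-0.17, 95% interval -0.52 to 0.19, q = 0.874) in the authors' deposited tables. SCG5 went from 474 to 478 in clone 4 (0.010, 95% interval -0.13 to 0.15, q = 0.993) and from 384 to 354 in clone 5 (-0.12, 95% interval -0.30 to 0.059, q = 0.757) in the authors' deposited tables. All 4 intervals ended, in either direction, short of the change of the same gene in the knockout. They are intervals of shrunken values, so they do not exclude a change of that size. The difference between the TetOn clones was 0.15 for SCG2 (95% interval -0.34 to 0.64, adjusted p = 1) and -0.13 for SCG5 (95% interval -0.36 to 0.096, adjusted p = 1), where 0.221% of genes differed. The highest SE in both TetOn tables was 0.204, below that of the other tables, as in fold changes shrunk more strongly toward 0.

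Other genes of the pathway were taken as lists chosen by function, with earlier results of these data known. Their counts stand against the shares of all usable genes that rose and fell. These were 9.6% and 9.07% in clone 1, 22% and 24.2% in clone 2, and 26.6% and 26.9% in the RPE1 knockout. Of 32 genes of dense core vesicle biogenesis and release, 13 rose and 1 fell of 28 usable in clone 1 (median 0.28, against -0.0068 over all usable genes). In clone 2 the same list went 8 up and 9 down of 28 (median 0.056, against -0.012). Of its genes, 11 were lower and 2 higher in clone 2 than in clone 1, out of 28 tested, where 11.2% of all genes were lower and 9.29% higher. PTPRN2, which encodes a membrane protein of the dense core vesicle, rose in both clones of the authors' deposited tables (0.43, SE 0.113, and 0.92, SE 0.110). RAB3A, a small GTPase of vesicle docking, rose by 0.75 (SE 0.109) and 0.63 (SE 0.105), and in the authors' deposited tables RAB3B rose by 0.53 (SE 0.170) and 0.82 (SE 0.150). SYT1, the calcium sensor of release, rose in clone 1 (0.15, SE 0.0488) and fell in clone 2 (-0.28, SE 0.0584) of the authors' deposited tables. The scaffold gene PCLO did likewise in the authors' deposited tables (0.27, SE 0.0993, and -0.35, SE 0.136). In the RPE1 knockout the list went 6 up and 8 down of 23 usable (median -0.093), near the share of all genes called there (53.6%). Among the 6 that rose there in the authors' deposited table were the release genes SNAP25 (3.29, SE 0.155), RAB27B (1.89, SE 0.0634) and SYT1 (1.54, SE 0.0416). The 8 that fell are not named.

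The list of enzymes that cut and finish the peptides held CPE, which moved in both CHP-134 clones. Of 9 prohormone processing genes, 1 rose of 5 usable in clone 1, and 2 rose and 2 fell of 4 in clone 2. CPE, the carboxypeptidase that trims granin peptides, rose in clone 1 (0.19, SE 0.0486, q = 0.0014) and fell in clone 2 (-0.44, SE 0.0697, q = 3.78e-09) in the authors' deposited tables, the pattern of CHGB and SCG2. In the RPE1 knockout 3 rose and 2 fell of 7, among them PAM, the amidating enzyme, at -0.40 (SE 0.0193) in the authors' deposited table. Of 22 neuropeptide genes 6 were usable in each CHP-134 table and 3 in the RPE1 knockout table, where 1 rose and 1 fell. NPY, which encodes the peptide stored with noradrenaline in sympathetic vesicles, rose in clone 1 (1.54, SE 0.196, q = 3.61e-13) and fell in clone 2 (-1.43, SE 0.313, q = 3.01e-05) in the authors' deposited tables. It was the single neuropeptide gene called in clone 1, and 1 rose and 2 fell in clone 2.

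Of 17 genes of catecholamine cofactors, uptake and breakdown, 0 rose and 1 fell of 9 usable in clone 1, and 5 rose and 1 fell of 9 in clone 2 (median 0.40). CYB561, the vesicle membrane cytochrome that supplies electrons to DBH, was at -0.059 (q = 0.791) in clone 1 and rose by 0.61 (SE 0.102, q = 2.05e-08) in clone 2 of the authors' deposited tables. GCHFR, which regulates synthesis of the TH cofactor, was at -0.38 (q = 0.188) and rose by 0.98 (SE 0.175, q = 2.47e-07) in the authors' deposited tables. SLC6A3, the dopamine transporter gene, fell in clone 1 (-1.45, SE 0.254) and rose in clone 2 (0.89, SE 0.223) in the authors' deposited tables, opposite to SCG2 and NPY. In the RPE1 knockout 5 of 10 usable genes of this list rose and 2 fell.

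The list of noradrenergic and neuroendocrine regulators went 5 up and 2 down of 20 usable in clone 1, and 6 up and 5 down of 19 in clone 2. PHOX2A, a homeodomain factor that activates DBH and TH, rose in clone 1 (0.44, SE 0.0462) and fell in clone 2 (-0.86, SE 0.0485) in the authors' deposited tables. CRTC1, a coactivator of CRE-bound CREB, rose in both clones of the authors' deposited tables (0.48, SE 0.138, and 0.78, SE 0.134), as did the early response gene EGR1 (1.78, SE 0.163, and 1.17, SE 0.165). TFAP2A fell in clone 1 (-1.27, SE 0.225), in clone 2 (-0.97, SE 0.231) and in the RPE1 knockout (-0.70, SE 0.0620) of the authors' deposited tables. REST, a repressor of neuronal genes in other tissues and a gene named after its values were seen, fell in clone 1 (-0.43, SE 0.117, q = 0.00243) and was at 0.17 (q = 0.152) in clone 2 of the authors' deposited tables. In RPE1, where PHOX2A, HAND1 and INSM1 were among the regulators listed at 0, 5 rose and 6 fell of 18 usable regulators in the knockout. There GATA3 rose by 4.53 (SE 0.344) from a low level in the authors' deposited table. After doxycycline DESeq2 called none of these pathway genes in either TetOn clone. For the vesicle biogenesis and release list 0 of 19 and 0 of 18 usable genes were called in clones 4 and 5, with 4 and 1 at an unadjusted p under 0.05. The same counts were 0 of 6 in each clone for prohormone processing (0 and 2 unadjusted), 0 of 8 for cofactors, uptake and breakdown (1 and 0), 0 of 2 and 0 of 3 for neuropeptides (0 and 0), and 0 of 16 for the regulators (1 and 1).

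The members were also set beside their 10 neighbours on the chromosome, the 5 nearest usable genes on each side in gene order. Of all usable genes, 26.9% were called downward in the RPE1 knockout and 24.2% in clone 2. SCG2 on chromosome 2 rose by 1.39 in clone 1 of the authors' deposited tables, where its neighbours had a median of -0.068 (range -0.16 to 0.21). In clone 2 the neighbours of SCG2 had a median of -0.18 (range -0.65 to 0.089), with 4 of 10 called downward, and in the RPE1 knockout a median of 0.0022 (range -0.60 to 1.06). SCG5 on chromosome 15 fell with 7 of its 10 neighbours in the RPE1 knockout (median -0.22, range -1.18 to 0.061). SLC18A2 on chromosome 10 and SCG3 on chromosome 15 each fell in clone 2 with 6 of their 10 neighbours (medians -0.35 and -0.23). CHGA on chromosome 14 rose by 0.92 in clone 2 of the authors' deposited tables, against a median of -0.029 for its neighbours, of which 1 rose and 3 fell. Copy number was not measured here.

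Last, the genes with the most similar fold changes were sought among genes of mean count at least 100, by Euclidean distance over the tables in which the member was usable. For CHGA, over the 2 CHP-134 tables and 10121 candidates, the nearest was PTPRN2 at a distance of 0.0020 on the log2 scale, followed by SHANK3 at 0.027. For SCG3 the nearest was the neurofilament gene NEFL at 0.023, and for CHGB it was KIF13A at 0.0078. SCG2 had no close match over 5 tables and 8997 candidates, with TMEM200A nearest at 1.02 and the axon guidance gene SLIT2 next at 1.05. For SCG5 over the same 5 tables PRKG2 was nearest at 0.226. With so many candidates a near match is a description only.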

How the data were processed

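RNA sequencing of 39 libraries in 9 groups was deposited as 5 tables, each comparing 2 groups. STAR and DESeq2 are the tools that the submitters' processing notes name, without versions. Which genome build, annotation, counting rule and strand setting the authors took is not given in the sources used here. Per the file headers the authors deposited for each gene a mean count, taken here as a normalised signal because its scaling is not stated, a log2 fold change with its standard error, a q value (an adjusted p-value) and a Status. Values carry 3 significant digits, so a q printed as 0 is below the smallest value shown. Depth and values per library were not analysed here. The labels do not say that replicates were separate cultures, so the q values may measure technical spread only.

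Groups were taken from the labels, and the direction of each table from the sign of TRIM37. The deposited q values were checked against a Benjamini-Hochberg adjustment of a normal p-value over usable genes, which called 6959, 2391, 5900, 236 and 362 genes in the 5 tables, against 6963, 2388, 5898, 237 and 362 as deposited. Group levels were worked out from the mean count and the fold change, treated as if it were an unshrunken ratio of equal-sized groups. Where a fold change was shrunken, the 2 levels lie closer together than the group means themselves. Differences between tables were tested as normal over the root of the summed squared errors and adjusted over all genes usable in both, after the steps had been tested on simulated data. The simulated fold changes were drawn independently per table with the deposited SEs, so they could not test those SEs or the shared wild type. The 10 genes, the 8 lists and the tests were chosen with earlier results of these data known, and the tests between RPE1 and CHP-134 were added afterwards. All 10 genes are named. From each list the genes called in both CHP-134 clones or both TetOn clones are named, and otherwise the 3 with the smallest q in a comparison, and the text may name fewer. REST, PCSK1 and PCSK2 fall outside this rule and were named after their values were seen, and some markers, at or near 0 or abundant, are named to show the state of the lines. List genes under older symbols in the files were matched through RefSeq synonyms. Promoters came from RefSeq on GRCh38.p14, and transcript lengths and exon overlaps from GENCODE v29. Alternatives were a threshold of 0.01, a change of at least 1.5-fold, a mean count of at least 50, Outlier genes kept, statistics rescaled to their central spread and fold changes recentred on the median. Python 3.11.15, pandas 2.3.3 and scipy 1.17.1 were used.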

Additional observations from a re-analysis of the deposited data

Results flagged for a closer look

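Of the 10 genes, 4 differed between the 2 CHP-134 mutant clones by the test of the difference of their log2 fold changes (clone 2 minus clone 1). SCG2 differed by -2.32, SCG3 by -0.73, CHGB by -0.46 and CHGA by 0.49.

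The same test passed, with fold changes called in both clones and of opposite sign in the authors' deposited tables, for 10 genes of the pathway and marker lists. NPY, a neuropeptide gene, differed by -2.97, the noradrenergic regulator PHOX2A by -1.29, the carboxypeptidase gene CPE by -0.63, the release genes PCLO and SYT1 by -0.62 and -0.43, and the neuronal markers GAP43, NEFL and ELAVL4 by -1.64, -0.76 and -0.40. SLC6A3, the dopamine transporter gene, and FN1, the fibronectin gene, were higher in clone 2, by 2.34 and 1.14.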

How the results depend on the processing

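No paired analysis was possible because the tables hold 1 comparison each and no value per library. For the same reason no replicate could be left out. Over the 6 alternatives, 129 of 146 values of members usable as deposited stayed on their side of the threshold, 17 calls were lost, and none of these values was gained or reversed. Keeping Outlier genes added VGF, taking the members called from 3 to 4 in CHP-134 clone 1 and from 7 to 8 in clone 2. With a change of at least 1.5-fold required, the members called fell from 3 to 1 in CHP-134 clone 1 (SCG2) and from 7 to 4 in clone 2 (SLC18A2, CHGA, SCG2 and SCG5). With statistics rescaled to their central spread they fell to 1 in clone 1 (SCG2) and 2 in clone 2 (CHGA and SCG2), and the members that differed between the clones from 4 to 2 (CHGB and SCG2). Under the other alternatives the adjusted p of the calls lost to rescaling ran from 2.13e-08 to 2.27e-08 for VGF in the RPE1 knockout, from 1.34e-05 to 1.94e-05 for CHGA and 0.00342 to 0.00494 for CHGB in clone 1, and from 0.0443 to 0.0495 for DDC, 0.000305 to 0.000416 for SLC18A2, 2.59e-05 to 6.98e-05 for CHGB, 4.95e-07 to 1.05e-06 for SCG3 and 0.0338 to 0.0380 for SCG5 in clone 2. A mean count of at least 50 left VGF in the knockout and SCG5 in clone 2 untested. The cause was not tested beyond the construction of each setting. Over all genes, a 1.5-fold minimum took the calls from 6963 to 1646 in the RPE1 knockout, from 2388 to 474 and from 5898 to 1508 in clones 1 and 2, and from 237 to 8 and from 362 to 11 in TetOn clones 4 and 5. Rescaled statistics left 1264, 236, 252 and 156 in the first 4 of these, and a threshold of 0.01 left 1450 in clone 1 and 141 and 240 in the TetOn clones. Shrunken fold changes and the lack of counts per library limit what can be said of TH, DBH and the other Status Low genes.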

Other observations

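A pair of genes outside the naming rule, both Status Outlier and untested, were chosen after their values were seen. PCSK1N, whose product proSAAS is a granin-like inhibitor of prohormone convertase 1, had a log2 fold change of 1.28 (SE 0.271) in the authors' deposited table of CHP-134 clone 1, and in that of clone 2 at 1.78 (SE 0.306). STMN2, a marker of growing neurites, was at 0.36 (SE 0.152) in the authors' deposited table of clone 1, and in that of clone 2 at -3.56 (SE 0.144).

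The convertases that cut granins in regulated secretion were close to absent from CHP-134 cells. PCSK1 was at a mean count of 0.606 and 0.505 in the authors' deposited tables of clones 1 and 2, and PCSK2 was listed at 0 in both. SCG5, the chaperone of the PCSK2 product, was at 20.5 and 15.4 in the same tables. In the RPE1 knockout table of the authors, PCSK1 was at 10.8 and PCSK2 at 13.2, beside 1820 for SCG5. In the authors' deposited tables of TetOn clones 4 and 5, PCSK2 was listed at 0, beside 476 and 369 for SCG5.

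The regulator TLX2 fell in the RPE1 knockout by 1.92 on the log2 scale (SE 0.169, q = 9.14e-29) in the authors' deposited table, and CTSL, a granin-processing protease listed under its older symbol, rose by 0.53 (SE 0.0293).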
